A study of Oryza sativa with 12 samples.

Results

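The 87 rice loci described here had low transcript counts in unstressed leaves of the mutant idr1-1. Under drought their mean in idr1-1 was not much lower than in wild type, and in some it was well above it. They were chosen from 55986 entries on CPM values (the count divided by the library total, times 1000000). A locus had at least 2 CPM in its lowest wild type control library. Its highest idr1-1 control library reached at most 0.6 times that value. Its mean in idr1-1 drought was at least 0.8 times the mean in wild type drought. No upper limit was set, and level in drought has this meaning here. Of 17388 loci that met the first limit, 148 met the second and 90 of these the last. The 3 secondary wall cellulose synthase loci among the 90, CESA4 (LOC_Os01g54620), CESA7 (LOC_Os10g32980) and CESA9 (LOC_Os09g25490), were set aside as a reference. Another 58 loci were low in idr1-1 control but stayed under the drought limit.

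The plants were wild type rice of cultivar IAPAR9 and the mutant idr1-1, labelled with the same cultivar, at 5 weeks of age and the five-leaf stage. They grew in concrete tanks, and each genotype was either left unstressed (control) or collected once soil moisture had dropped to 10% (drought). Each of the 4 groups held 3 biological replicates, 12 libraries in all, and total counts were 19100444 to 25109848. The tissue label is leaf, whereas the extraction protocol speaks of seedlings. Published work places the idr1-1 lesion in the gene of the heterotrimeric G protein alpha subunit RGA1, which relays signals from receptors at the plasma membrane. The RGA1 transcript (LOC_Os05g26890) was 25.5 to 34 CPM in wild type control and 11.2 to 12.3 CPM in idr1-1 control, and it was also lower in idr1-1 under drought (24.1 to 27.6 against 10.9 to 12.7 CPM).

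Plant cells build a thin primary wall while they grow, and vessels and fibres then lay down a thick secondary wall inside it. Cellulose is made at the plasma membrane by complexes of cellulose synthases, and in rice CESA4, CESA7 and CESA9 form the complex of the secondary wall. Grass walls also hold mixed-linkage glucan, whose chains are made by CSLF6, the member with a usable name. The other 86 members are given by locus identifier, since no source used here pairs them with a name or a function.

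The values that chose the members are a description and carry no test. The mean level of a member in wild type control had a median of 5.73 CPM over the 87 loci, with a range from 2.28 to 1025. In idr1-1 control the median was 2.19 CPM, in wild type drought 3.23 and in idr1-1 drought 3.78. CPM is not divided by transcript length, so these levels compare groups and not genes. The ratio of the wild type to the idr1-1 control mean had a median of 2.66 and ran from 1.82 to 10.2, leaving out a locus with no count in idr1-1 control. Under drought the idr1-1 mean was above the wild type mean in 60 members and under it in 27. The drought ratio, idr1-1 over wild type, had a median of 1.17 and an upper quartile of 1.48. Its highest value, 11.4, was in LOC_Os07g02070, with about 1 count in drought. A locus with no count in wild type drought is left out of these ratios.

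**Figure D1:**
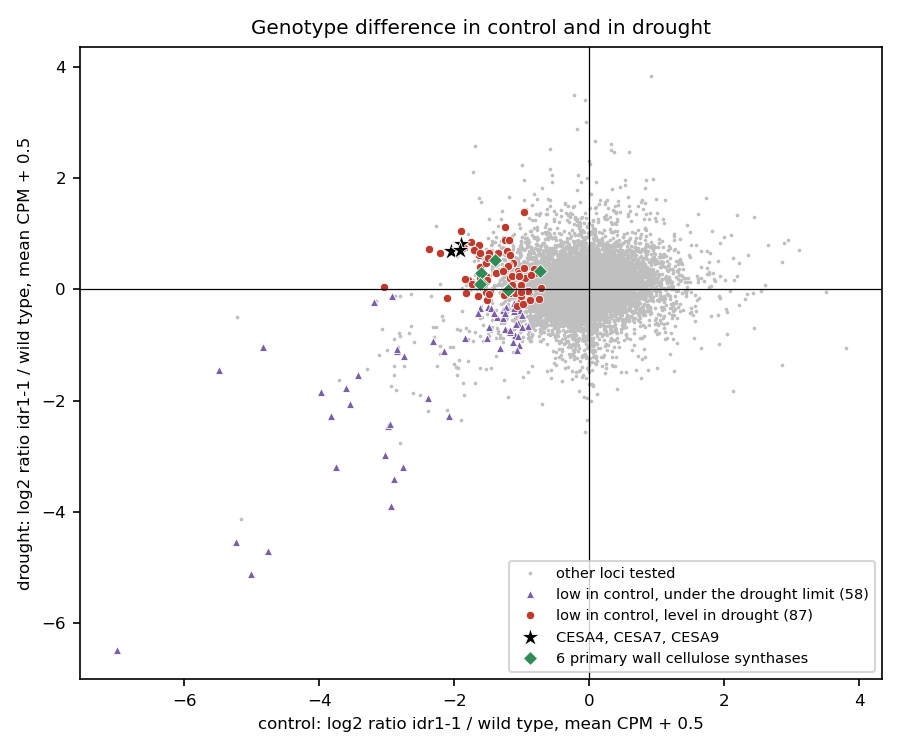
Log2 ratio of the idr1-1 to the wild type mean (CPM + 0.5) in control on the horizontal axis and in drought on the vertical axis, for the 22833 loci tested. The 87 chosen loci (circles) lie left of 0 in control and close to or above 0 in drought, beside CESA4, CESA7 and CESA9 (stars), while the 58 loci under the drought limit (triangles) all lie below 0 in drought.

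One library bears on who belongs to the group. Idr1-1 drought replicate 3 stood apart from its replicates: the chi-square per gene against them was 85.6 and 88.9, whereas no other pair of replicates in any group exceeded 21.4. It was the highest of the 3 idr1-1 drought libraries in 63 members, against 69.8% of all loci tested. Without it, 60 of the 87 members still met the rule and 27 did not. The 27 had drought ratios of at most 0.794 without that library. Among them, LOC_Os01g35050 had 77.2, 53.7 and 44.7 CPM in wild type drought and 32.3, 27.6 and 106 CPM in idr1-1 drought. Its drought ratio was 0.944 with the third library and 0.512 without it. LOC_Os06g44034 had 1.88, 4.34 and 2.19 CPM in wild type drought and 1.54, 0.828 and 5.37 CPM in idr1-1 drought. For both loci a single idr1-1 library carried the drought level that chose them.

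**Figure D2:**
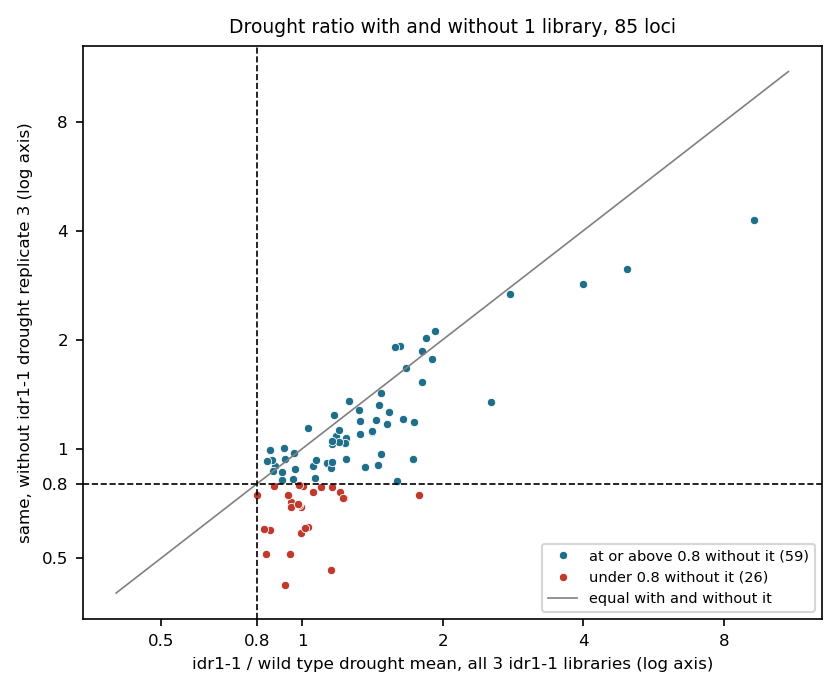
Ratio of the idr1-1 drought mean to the wild type drought mean with all 3 idr1-1 libraries (horizontal, log axis) and without idr1-1 drought replicate 3 (vertical, log axis) for 85 loci; 2 members with a drought mean of 0 are left out, and dashed lines mark 0.8. Most points lie below the line of equal values, and 26 of those drawn fall under 0.8 without that library.

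The members near the limits show how narrow the choice was. LOC_Os05g46610, LOC_Os04g53030 and CSLF6 stood just inside the control limit, with a ratio of the highest idr1-1 to the lowest wild type control library of 0.599, 0.598 and 0.597. LOC_Os07g48910 and LOC_Os01g07630 stood just outside it, both at 0.601, followed by LOC_Os03g15410 at 0.602. At the drought limit, LOC_Os03g18370 had a ratio of 0.802, LOC_Os04g39930 of 0.830 and LOC_Os06g01890 of 0.837. LOC_Os02g21340 at 0.798, LOC_Os02g50700 at 0.797 and LOC_Os05g10930 at 0.794 were left outside.

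CSLF6 (LOC_Os08g06380), the mixed-linkage glucan synthase, had 72.9, 48.8 and 59.5 CPM in wild type control and 19.6, 29.2 and 9.09 CPM in idr1-1 control. Under drought it had 53.5, 48.9 and 47.8 CPM in wild type and 65.8, 44.4 and 89.8 CPM in idr1-1. The control groups did not overlap, which the rule requires of every member, and the drought groups did. The control means differed 3.13-fold. The drought ratio of 1.33 became 1.10 without idr1-1 drought replicate 3.

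The secondary wall reference met the same rule, so its low idr1-1 control level and its drought level above the limit are shared with CSLF6 by choice. The drought ratios were 1.63 (CESA4), 1.79 (CESA7) and 1.66 (CESA9), against 1.33 in CSLF6. CESA4 had 13.5, 9.83 and 16.0 CPM in wild type control, 1.94, 5.13 and 1.35 CPM in idr1-1 control, 13.0, 8.28 and 8.47 CPM in wild type drought and 18.5, 11.2 and 18.9 CPM in idr1-1 drought. CESA7 means were 11, 2.57, 12.2 and 21.8 CPM in the same order of groups. CESA9 means were 10.1, 2.29, 11.9 and 19.8 CPM. In all 3 loci idr1-1 control replicate 2 was the highest of its group.

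Several of the members lowest in idr1-1 control relative to wild type had few counts. LOC_Os07g02070 had 2.11, 2.90 and 5.78 CPM in wild type control, 223 counts in all, and none in idr1-1 control. Against a floor of 3 counts over the group it was at least 71.3-fold lower in idr1-1 control. It was near 0 in both drought groups, so that its place among loci level in drought rests on about 1 count. LOC_Os06g01890 had 2.90, 2.17 and 3.54 CPM in wild type control and 0.284, 0.366 and 0.192 CPM in idr1-1 control, a ratio of means of 10.2. Under drought it had 1.49, 0.319 and 1.01 CPM in wild type and 0.484, 0.479 and 1.39 CPM in idr1-1, and it left the group without idr1-1 drought replicate 3. LOC_Os03g55290 had 4.78, 2.21 and 2.97 CPM in wild type control and 0.520, 0.890 and 0.144 CPM in idr1-1 control, and under drought it had 1.75, 0.757 and 0.922 CPM in wild type and 2.02, 1.05 and 5.62 CPM in idr1-1. In 12 members both drought means were under 1 CPM, where the level in drought means little transcript in either genotype.

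Level in drought was reached in different ways, which were described by the mean drought response over both genotypes. The rule sets no limit on this average, but its control mean contains the idr1-1 control libraries chosen for being low and the wild type control libraries chosen for at least 2 CPM. A call says that the average over both genotypes rose or fell, not that each genotype did. The contrast compares the mean of both drought groups with the mean of both control groups, in an edgeR quasi-likelihood fit of all 12 libraries adjusted by Benjamini-Hochberg over 22833 loci. Of the 87 members 25 rose and 31 fell at an adjusted p under 0.05, and 31 passed in neither direction. Over all loci tested 27.4% rose and 26.1% fell, so that the share of members that rose, 28.7%, was near the background and the share that fell was 35.6%. The median response was −0.19 (log2) over the members and 0.01 over all loci tested. Rises of at least 2-fold were called in 15 members, against 9.04% of all loci, and falls of at least 2-fold in 25, against 8.38%. Among the 58 loci under the drought limit, 12 rose and 21 fell, with a median of −0.52. All 87 members passed the filter on low counts, which the minimum level in the rule brings about. The response was taken from the same libraries that chose the members, so the counts and p-values of members are no independent evidence.

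Members that rose had a median level of 4.44 CPM in wild type control, 1.90 in idr1-1 control, 10.6 in wild type drought and 13.8 in idr1-1 drought. Members that fell had medians of 7.14, 2.49, 1.51 and 1.62 CPM in that order. Members called in neither direction had 4.59, 2.35, 2.73 and 3.17 CPM. The genotypes did not take the same part in these averages. Of the 25 members that rose, all 25 had a drought response above 0 in idr1-1 and 19 in wild type, where 13 had every drought library above every control library, as did 26.1% of all loci tested. Of the 31 that fell, all 31 had every wild type drought library below every wild type control library, against 31.5% of all loci. In idr1-1 this held for 10 of the 31, against 22.3%, and 6 of the 31 had a drought response above 0 there. These background shares cover all loci tested, whatever their call. The members were split by their call, which itself favours groups without overlap, so nothing is read from the differences. The 31 members called in neither direction had a fitted response below 0 in wild type and above 0 in idr1-1, among them LOC_Os07g02070 with about 1 count in drought. Over the 87 members the log2 drought response had a median of −0.86 in wild type and 0.65 in idr1-1. These values by genotype contain the control difference that chose the members, and they carry no test.

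**Figure D3:**
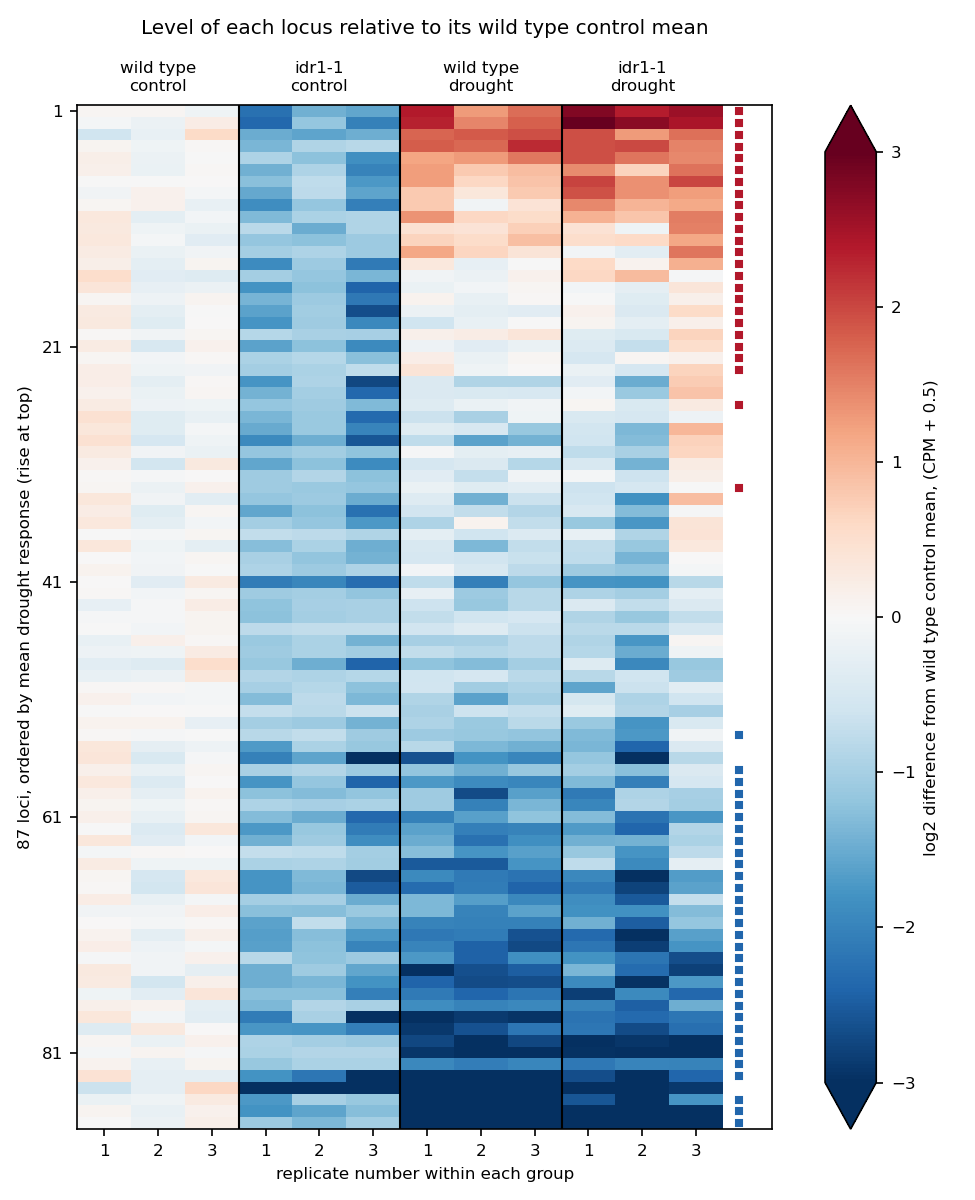
Log2 level (CPM + 0.5) of the 87 loci in each of the 12 libraries relative to the locus's own wild type control mean, ordered by mean drought response, with colours saturating at 3 in either direction. Squares at the right mark the 25 loci that rose (red) and the 31 that fell (blue); the idr1-1 control columns are below the wild type control mean throughout, which is how the loci were chosen.

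The strongest rise was in LOC_Os03g16610, which had 2.67, 2.69 and 2.29 CPM in wild type control, 0.142, 0.628 and 0.529 CPM in idr1-1 control, 15.5, 6.93 and 9.26 CPM in wild type drought and 20.3, 15 and 17.7 CPM in idr1-1 drought. Every drought library was above every control library. The mean response was 3.74 ± 0.26 (log2, SE; adjusted p = 4.4e-07, edgeR). LOC_Os01g62490 had 3.37, 3.03 and 4.16 CPM in wild type control, 0.284, 1.31 and 0.481 CPM in idr1-1 control, 19.5, 10.6 and 13.5 CPM in wild type drought and 32.7, 26.0 and 21.6 CPM in idr1-1 drought. Its response was 3.73 ± 0.27 (adjusted p = 6.4e-07, edgeR), and its idr1-1 drought libraries were all above those of wild type drought. LOC_Os09g26920 had 2.53, 3.47 and 6.30 CPM in wild type control and 1.13, 1.05 and 1.15 CPM in idr1-1 control, with 14.9, 16.0 and 16.9 CPM in wild type drought and 17.0, 10.6 and 13.9 CPM in idr1-1 drought. Here the drought groups overlapped, and the response was 2.85 ± 0.21 (adjusted p = 6.4e-07, edgeR). LOC_Os04g51660 rose by 2.66 ± 0.18 and LOC_Os07g40130 by 2.34 ± 0.18 on the same scale (adjusted p = 3.7e-07 and 8.5e-07, edgeR).

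CSLF6 was among the members that rose, by 0.80 ± 0.22 (log2, SE; adjusted p = 0.009, edgeR), with the low idr1-1 control level entering the control mean. Its response was −0.21 in wild type alone. LOC_Os10g38080 rose by 1.40 ± 0.12 (adjusted p = 2.5e-06, edgeR), with 24.7 to 39.4 CPM in wild type control, 13.1 to 14.5 in idr1-1 control, 46.0 to 59.5 in wild type drought and 45.5 to 71.4 in idr1-1 drought. This locus was picked after its values were seen, as an example at a higher count level.

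Among the members that fell, LOC_Os09g19500 went from 15.9, 14.1 and 18.4 CPM in wild type control, 1019 counts, to 0 counts in wild type drought, at least 378-fold lower against a floor of 3 counts over the group. In idr1-1 it went from 7.33, 6.02 and 7.74 CPM, 431 counts, to 2 counts, a ratio of 232 with an exact (Clopper-Pearson) 95% counting interval of 63.9 to 1924. Both genotypes thus had next to no transcript of it under drought. LOC_Os08g39830 had 16.2, 13.2 and 16.8 CPM in wild type control and 4.11, 4.76 and 6.06 CPM in idr1-1 control, and no drought library exceeded 0.836 CPM. Its response was −4.13 ± 0.25 (log2, SE; adjusted p = 1.6e-07, edgeR). LOC_Os05g11210 had 5.76, 6.07 and 8.12 CPM in wild type control, 1.65, 3.09 and 2.74 CPM in idr1-1 control, 0, 0.159 and 0.0878 CPM in wild type drought and 0.704, 0 and 1.59 CPM in idr1-1 drought. It fell by 3.94 on the log2 scale. LOC_Os04g46110 had 8.90, 5.29 and 5.31 CPM in wild type control and 1.51, 1.05 and 0 CPM in idr1-1 control, and no drought library exceeded 0.845 CPM. It fell by 3.35 ± 0.71 (adjusted p = 0.0018, edgeR). LOC_Os09g23100 fell by 2.63 ± 0.19 and LOC_Os03g58290 by 2.56 ± 0.37.

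Of the 6 members with the most counts in wild type control, 3 were among those that fell. LOC_Os04g52260 had 1265, 957 and 852 CPM in wild type control, 370, 492 and 347 CPM in idr1-1 control, 129, 163 and 183 CPM in wild type drought and 399, 207 and 148 CPM in idr1-1 drought. Its drought groups overlapped, and the mean response was −1.61 ± 0.26 (log2, SE; adjusted p = 0.00026, edgeR). LOC_Os12g01360 had 300, 332 and 305 CPM in wild type control, 162, 169 and 171 CPM in idr1-1 control, 40.8, 32.7 and 35.9 CPM in wild type drought and 39.8, 31.2 and 34.2 CPM in idr1-1 drought. The replicates of this locus stood close together, and its response was −2.62 ± 0.10 (adjusted p = 5.8e-09, edgeR). LOC_Os05g50750 had 38.5, 29.1 and 39.9 CPM in wild type control, 11.1, 14.4 and 10.4 CPM in idr1-1 control, 7.74, 8 and 5.40 CPM in wild type drought and 6.73, 3.01 and 11.3 CPM in idr1-1 drought. It fell by 1.53 ± 0.21 (adjusted p = 9.3e-05, edgeR).

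LOC_Os08g23180 is an example of a member called in neither direction. It had 53.5, 42.2 and 50.9 CPM in wild type control, 18.0, 23.9 and 9.09 CPM in idr1-1 control, 35.8, 35.2 and 35.2 CPM in wild type drought and 46.2, 22.3 and 88.4 CPM in idr1-1 drought. The idr1-1 drought libraries spread on both sides of the tight wild type drought group. Its response of 0.60 ± 0.26 did not pass in edgeR (adjusted p = 0.069) and passed under 3 of the alternative settings, namely with DESeq2 (adjusted p = 0.043), without idr1-1 control replicate 2 (0.032) and without idr1-1 drought replicate 2 (0.0065).

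**Figure D4:**
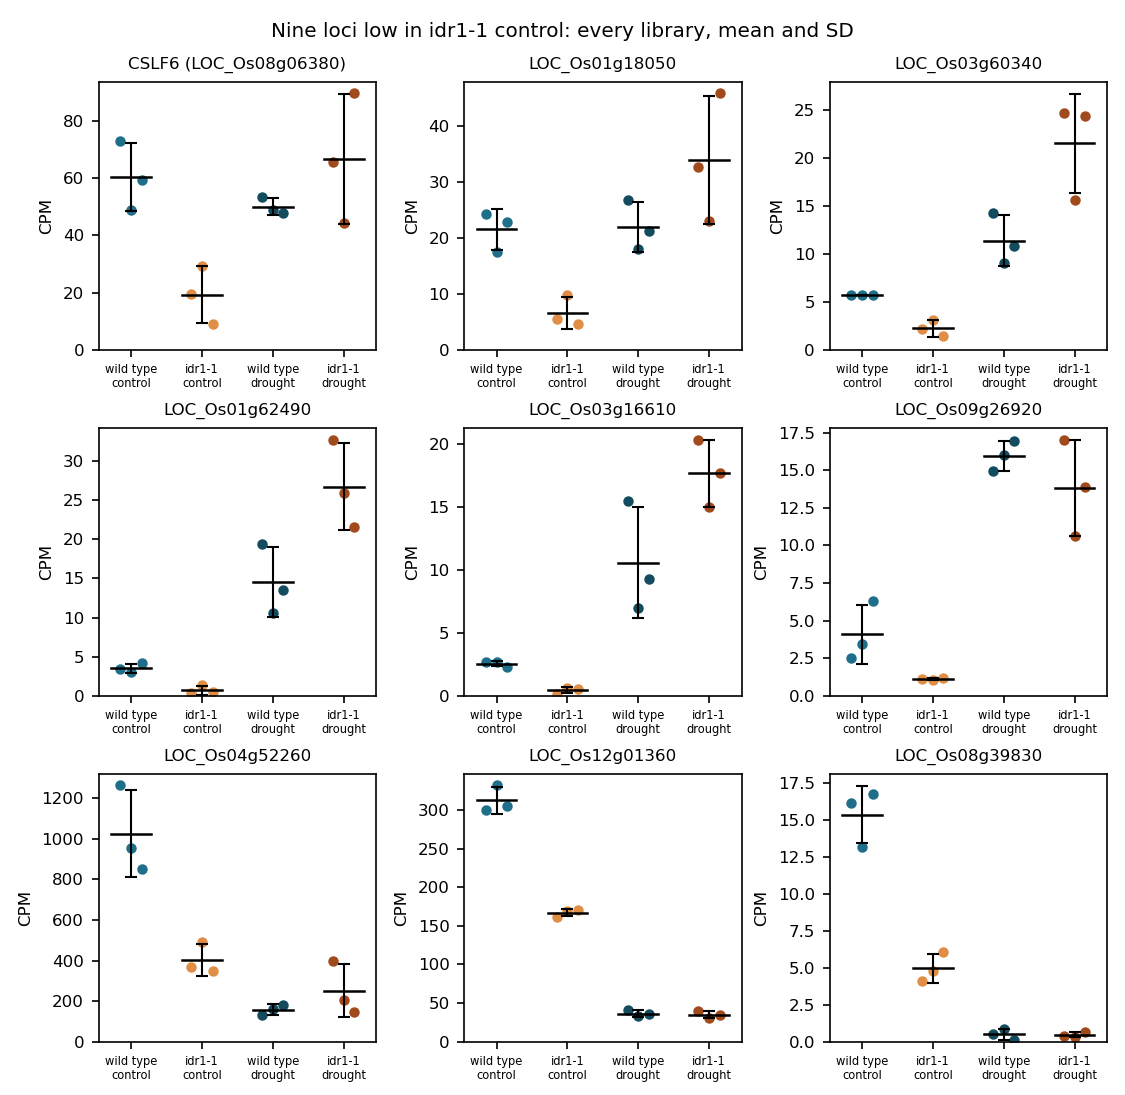
CPM of 9 members in every library (points), with the group mean (horizontal line) and SD (bars), 3 replicates per group, each panel on its own scale starting at 0. The top and middle rows hold loci that rose in mean drought response and the bottom row loci that fell. In each panel the idr1-1 control points lie below those of wild type control, which is how the loci were chosen.

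Idr1-1 drought exceeded wild type drought without overlap in 6 members, against 4.34% of all loci tested, and the reverse occurred in 0, against 8.27%. The drought limit of the rule favours the first and works against the second, so nothing is read from either count. The 6 were LOC_Os01g02010, LOC_Os01g06580, LOC_Os01g62490, LOC_Os03g02040, LOC_Os03g60340 and LOC_Os04g54810, and all 6 still met the rule without idr1-1 drought replicate 3. LOC_Os01g02010 had 5.82, 4.10 and 5.75 CPM in wild type drought and 13.2, 8.89 and 8.15 CPM in idr1-1 drought. LOC_Os01g06580 had 6.87, 3.42 and 5.18 CPM in wild type drought and 11.1, 8.10 and 8.80 CPM in idr1-1 drought. In both loci the idr1-1 control libraries were at 1.62 CPM or less. The wider range of idr1-1 between treatments follows from how these loci were picked, low in idr1-1 control and above wild type in drought.

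Whether the members move with the secondary wall cellulose synthases among replicates was described with group means removed. For each locus the deviations of log2(CPM + 0.5) from the group mean were correlated with the mean deviation of CESA4, CESA7 and CESA9 over the 12 libraries. The Pearson r of the members had a median of 0.45 and ran from −0.26 to 0.91, against a median of 0.13 over all 22833 loci tested. It was positive in 81 members, against 63.4% of the 22830 loci tested besides the synthases, members included. A member was said to follow the synthases at an r of at least 0.7: 17 of 87 did, 19.5%, against a background of 2.44%. Of the 58 loci under the drought limit 2 did, and their median r was 0.18. The points are libraries shared by all loci, and the limits of the rule restrict the spread among replicates, so these correlations are a description and have no p.

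The idr1-1 control group gave the widest spread of the synthases: their mean deviation was −0.38, 1.01 and −0.63 (log2) in replicates 1, 2 and 3. All 17 following members were highest in replicate 2 of that group. The synthases deviated most in that library, so the definition of following favours this. Over the 87 members replicate 2 was the highest in 54, against 31.6% of all loci. Without that library 18 members reached 0.7, 11 of the 17 among them, and the background was 4.68%. Without idr1-1 drought replicate 3, 24 members did, including all 17, against 4.55%. Without idr1-1 control replicates 2 and 3, the libraries farthest from the median of the synthases, 13 members did, 8 of the 17 among them, against 3.15%, and the member median was 0.53 against 0.20. With both idr1-1 control replicate 2 and idr1-1 drought replicate 3 left out, 26 members followed, against 6.13%. The members that follow are thus partly set by which libraries enter.

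**Figure D5:**
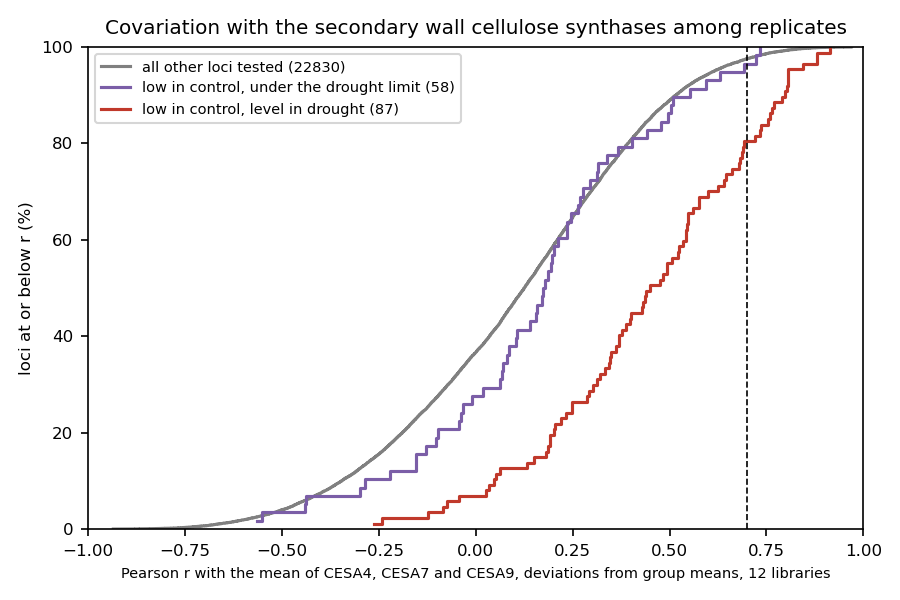
Cumulative share of loci (vertical, %) by Pearson r with the mean of CESA4, CESA7 and CESA9 after removing group means (horizontal), for all other loci tested, the 58 loci under the drought limit and the 87 chosen loci; the dashed line is at 0.7. The curve of the 87 loci lies to the right of both others, with medians of 0.45, 0.18 and 0.13 for the chosen loci, the 58 and all others.

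The closest member was LOC_Os01g18050, with an r of 0.91 and a Spearman rho of 0.92. It had 24.3, 17.4 and 22.8 CPM in wild type control, 5.44, 9.79 and 4.52 CPM in idr1-1 control, 26.8, 18.0 and 21.2 CPM in wild type drought and 32.6, 23.1 and 45.8 CPM in idr1-1 drought. Its replicates had the order of those of CESA4 in every group except wild type control, where the first and the third changed places. Its r was 0.88 without idr1-1 control replicate 2 and 0.87 without the farthest pair. Its mean drought response was 1.24 ± 0.19 (log2, SE; adjusted p = 0.00017, edgeR). LOC_Os03g60340 had 5.71, 5.72 and 5.73 CPM in wild type control, 2.13, 3.14 and 1.39 CPM in idr1-1 control, 14.3, 9.04 and 10.8 CPM in wild type drought and 24.7, 15.6 and 24.4 CPM in idr1-1 drought. Its r was 0.88, and it rose by 2.18 ± 0.18 (adjusted p = 1.6e-06, edgeR). LOC_Os05g32960, also with an r of 0.88, had 3.84, 2.90 and 3.49 CPM in wild type control, 0.945, 1.57 and 0.481 CPM in idr1-1 control, 8.88, 6.25 and 6.89 CPM in wild type drought and 9.98, 5.71 and 11.7 CPM in idr1-1 drought, and it rose by 2.19 ± 0.22 (adjusted p = 8.4e-06, edgeR). By genotype the response of LOC_Os01g18050 was 0.09 in wild type and 2.38 in idr1-1, that of LOC_Os03g60340 was 1.04 and 3.32, and that of LOC_Os05g32960 was 1.16 and 3.22. CESA4, CESA7 and CESA9 had mean responses of 1.12, 1.67 and 1.73, made up of −0.34, 0.21 and 0.30 in wild type and 2.58, 3.14 and 3.15 in idr1-1. In the 3 synthases and in LOC_Os01g18050 nearly all of the mean response thus lay in idr1-1, whose control level is low by choice.

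Following the synthases among replicates did not go with 1 direction under drought. Of the 17 members, 7 rose, 7 fell and 3 were called in neither direction. LOC_Os02g34430 (r = 0.84) had 4.64, 3.94 and 4.74 CPM in wild type control, 1.37, 1.83 and 0.625 CPM in idr1-1 control, 4.85, 3.74 and 4.56 CPM in wild type drought and 4.40, 3.31 and 5.02 CPM in idr1-1 drought. It stood at one level in 3 of the groups and was low in idr1-1 control alone, by the choice of members. CSLF6 had an r of 0.81 and a rho of 0.72, with an r of 0.66 without idr1-1 control replicate 2 and 0.57 without the farthest pair. LOC_Os03g18300 (r = 0.80) had 6.79, 4.98 and 8.69 CPM in wild type control, 1.70, 2.83 and 1.2 CPM in idr1-1 control, 1.92, 1.27 and 1.32 CPM in wild type drought and 1.76, 0.915 and 3.48 CPM in idr1-1 drought, and it fell by 1.01 ± 0.28 (adjusted p = 0.009, edgeR). LOC_Os01g42294 (r = 0.81) had a response of −0.33 that did not pass (adjusted p = 0.14, edgeR). LOC_Os01g62490, with an r of 0.80, had an r of 0.54 without idr1-1 control replicate 2, 0.70 without the farthest pair and 0.79 without idr1-1 control replicate 2 and idr1-1 drought replicate 3.

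The cell type markers gave the following levels. The summed CPM of CESA4, CESA7 and CESA9, which also mark vessels and fibres, was 26.8 to 41.1 in wild type control, 3.65 to 14.7 in idr1-1 control, 27.0 to 44.6 in wild type drought and 42.0 to 66.8 in idr1-1 drought. In bulk leaf RNA, fewer cells of a type and less RNA per cell cannot be told apart, and the part of vessel and fibre content in the members' levels was not tested. The 2 markers of dividing cells, PCNA and MCM2, summed to 14.2 to 16.1, 13.6 to 16.5, 12.3 to 14.5 and 10.9 to 16.5 CPM in the same order, and the ranges overlap. Most of that sum was PCNA. MCM2 had 1.87, 2.51 and 2.55 CPM in wild type control and 1.56, 1.57 and 1.30 CPM in idr1-1 control, with no overlap, and its drought groups overlapped. Its control difference of −0.56 did not pass (log2; adjusted p = 0.122, edgeR). CDKB2-1, a kinase of dividing cells, had 0.314 to 0.804 CPM over the control libraries and overlapping genotypes, and CYCB2-2 stayed under 0.1 CPM. The 2 leaf mesophyll markers, CAB1R and RCA, summed to 12455 to 16008, 15860 to 17511, 20363 to 21337 and 18149 to 23610 CPM. CAB1R made up most of this sum, and its mean drought response of 0.24 did not pass (log2, adjusted p = 0.30, edgeR). RCA rose by 1.51 (adjusted p = 1.1e-05, edgeR). Of the other tissues the 2 shoot apex markers OSH1 and OSH15 were at 0 in all libraries but 1, which held 0.0436 CPM, and the root marker LSI2 was at 0 throughout. The other root marker, LSI1, had 15.6 to 19.0 CPM in wild type control, 19.0 to 20 in idr1-1 control, 7.39 to 10.2 in wild type drought and 4.38 to 16.4 in idr1-1 drought. The inflorescence markers MADS1 and MADS14 summed to 1.85 to 4.12 and 2.58 to 4.04 CPM in wild type and idr1-1 control, and to at most 0.697 CPM under drought. MADS18, on the same list, had 69.0 to 76.2 CPM in wild type control and 45.8 to 54.1 in idr1-1 control. It was lower in idr1-1 control by 0.45 (log2, adjusted p = 0.0327, edgeR). Under drought it had 23.7 to 35.6 CPM in wild type and 28.4 to 35.5 in idr1-1. MADS15 had at most 0.130 CPM. The part of these in the members' levels was not tested.

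Other wall genes were compared to see how far the pattern of CSLF6 extends. Primary wall cellulose synthases showed a similar one, although they missed the control limit. In control CESA1 was lower in idr1-1 by 1.51 (log2; adjusted p = 0.0115, edgeR), CESA3 by 1.53 (0.0233), CESA5 by 1.35 (0.0136), CESA6 by 1.15 (0.0051) and CESA8 by 1.54 (0.0126), 5 of the 6 on the list besides CSLF6, against 4.93% of all loci called lower. CESA2 had a difference of −0.66 that did not pass (adjusted p = 0.144). CESA1 had 130, 75.2 and 128 CPM in wild type control and 35.5, 51.7 and 22.7 CPM in idr1-1 control, with 73.8, 76.6 and 73.4 CPM in wild type drought and 67.9, 60.7 and 110 CPM in idr1-1 drought. Between genotypes under drought the 6 had adjusted p-values of 0.335 to 0.916 (edgeR), where 0.14% of all loci were called lower and 0.0438% higher in idr1-1. Not passing does not show equal levels. Their drought ratios were 0.995 (CESA6) to 1.46 (CESA5) with all libraries. Without idr1-1 drought replicate 3 they were 0.797 (CESA3) to 1.14 (CESA5), with CESA2 at 0.818, CESA8 at 0.852 and CESA1 at 0.862. The control count depends on single libraries: it was 1 of 6 without wild type control replicate 1, 2 without idr1-1 control replicate 3 and 6 without idr1-1 drought replicate 3. BC1, a protein of secondary wall assembly, was lower in idr1-1 control by 1.30 (adjusted p = 0.0289, edgeR). IRX9, a xylan synthesis protein, was lower by 2.07 (adjusted p = 0.0222, edgeR), while the other 2 xylan genes did not pass. Of the 9 lignin genes tested 1 was lower and 3 were higher, against 5.54% of all loci called higher in idr1-1 control. The 7 expansins, which loosen walls during growth, had a median control difference of −0.40 with adjusted p-values of 0.577 to 0.987 (edgeR), and 3 of them fell in mean drought response while 1 rose.

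The members were spread over all 12 chromosomes. Chromosome 1 held 15 of them, chromosomes 3 and 4 held 12 each and chromosome 8 held 10. Chromosomes 4 and 8 held 13.8% and 11.5% of the members, against 8.78% and 6.58% of all loci tested. Chromosomes 2 and 12 held 5.75% and 2.3%, against 11.7% and 5.5%. These shares were not tested. In the order of locus identifiers 4 pairs of members lay within 10 entries of each other: LOC_Os01g51632 with LOC_Os01g51634, LOC_Os03g18300 with LOC_Os03g18370, LOC_Os04g46079 with LOC_Os04g46110, and LOC_Os06g43980 with LOC_Os06g44034. Pairs were not counted among other loci, so 4 cannot be read as many or few. Neighbours could differ in their call, and the difference between them was not tested. LOC_Os04g46110 fell by 3.35, whereas LOC_Os04g46079 had a response of −0.29 that did not pass (adjusted p = 0.2, edgeR). LOC_Os06g43980 rose by 0.65 ± 0.18 (adjusted p = 0.0097, edgeR). Its neighbour LOC_Os06g44034 had a response of 0.21 ± 0.36 that did not pass (adjusted p = 0.65, edgeR). Both LOC_Os06g43980 and LOC_Os06g44034 left the group without idr1-1 drought replicate 3. LOC_Os09g25000 lay 47 entries from CESA9. It had 4.59, 2.38 and 2.65 CPM in wild type control, 0.945, 1.2 and 0.240 CPM in idr1-1 control, 1.88, 1.39 and 2.90 CPM in wild type drought and 2.20, 2.13 and 2.83 CPM in idr1-1 drought, and its r with the synthases was 0.54.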

How the data were processed

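The authors deposited 1 table of estimated counts per library, not scaled to depth. The submitters' processing notes name HISAT2 2.1.0 and featureCounts 1.6.3. For the build, the annotation, strandedness and counting mode, nothing is given in the sources used here. Values with a fraction made up 13.8% of those above 0, so near-identical, overlapping and antisense loci are uncertain. CPM was computed from the deposited counts and library totals, and counts were rounded for tests. A floor of 3 counts is 0.119 to 0.157 CPM per library and, like the intervals, covers counting error only. No replicate pair was a duplicate (chi-square per gene at least 8.20, over loci with 20 or more counts).

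In R 4.3.3, edgeR 4.0.16 fitted a mean for each group to 22833 loci left by filterByExpr, with TMM factors. The fit had 8 residual degrees of freedom and a biological coefficient of variation of 0.17. The threshold was 0.05 after Benjamini-Hochberg adjustment, and each SE was derived from the log2 fold change and the F value. DESeq2 1.42.0, other scalings, no filter, a replicate block and leaving out each library were alternatives. The fit was tested on simulated data.

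Members and lists were chosen with earlier results of these data known. Named loci were the 8 members with the highest r with the synthases, the 8 with the largest control ratio of lowest wild type to highest idr1-1 library, the 6 with the highest wild type control CPM, the 5 largest rises and 5 largest falls, members on a list, neighbours, and the 3 loci either side of each limit. The gene table used (assembly ASM3414082v1) holds 0 of the LOC_Os identifiers. Names are published locus assignments recalled for 98 loci, of which 97 were in the files; 63 had a named gene in that table on the right chromosome and in the right order. Promoter motifs were planned and not analysed here.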

Additional observations from a re-analysis of the deposited data

Results flagged for a closer look

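In 5 members every wild type drought library lay below every wild type control library and every idr1-1 drought library above every idr1-1 control library. The difference was not tested, and the rule that chose the members favours it; 44 of all loci tested moved in this way. The difference of the log2 responses, idr1-1 minus wild type, was 3.92 in LOC_Os03g55290 (−1.48 in wild type and 2.45 in idr1-1), 3.00 in LOC_Os06g01890 (−1.55 and 1.45), 1.69 in LOC_Os01g64250 (−0.97 and 0.72), 1.37 in LOC_Os08g31760 (−0.33 and 1.03) and 1.04 in LOC_Os04g58910 (−0.24 and 0.80). LOC_Os06g01890 no longer met the rule without idr1-1 drought replicate 3.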

How the results depend on the processing

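The number of members depended on the limits: it was 20 with a control ratio of at most 0.5, 252 with 0.7, 45 with at least 5 CPM, 123 with at least 1 CPM, 60 with a drought ratio of at least 1 and 70 with TMM-scaled CPM, of which 65 were among the 87. Leaving out 1 library gave 63 to 327, the highest without idr1-1 control replicate 2, then 298 without wild type control replicate 2, since a limit on the lowest and highest library loosens with fewer libraries. The mean drought response was called in 11272 to 12352 loci under the other settings and in 11373 to 13101 with 1 library left out. Among the members, leaving out 1 library gave 54 to 61 called, 25 to 31 that rose and 28 to 34 that fell; DESeq2 gave 26 and 32, and library size alone 24 and 31. The following members numbered 14 to 24 with 1 library left out and 26 without idr1-1 control replicate 2 and idr1-1 drought replicate 3, an alternative added after seeing the data, as were those for the primary wall count, which ran from 1 to 6. Single loci were followed through these settings for the named members and the primary wall cellulose synthases. None of these that passed in the main edgeR fit reversed direction. Other loci given with a call in the text, among them BC1, IRX9, MADS18 and LOC_Os10g38080, were not followed one by one. For members that did not pass there, a change of sign was not counted. Beside LOC_Os08g23180, 8 loci changed sides of the threshold under 1 to 5 settings, among them LOC_Os12g12514 (−0.98, adjusted p = 0.024, edgeR), lost under 4, and CESA3, lost under 5; the cause was not tested.

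The deviations of same-numbered replicates had correlations of −0.395 to 0.256 over the pairings of groups. Without differently numbered replicates beside them, these values cannot decide whether the numbers pair the samples. With the replicate number as a block, 11579 loci and 55 members were called, 25 up and 30 down, and 4 primary wall synthases. The limits are depth and group size. With 3 libraries per group a single one can set a limit of the rule, and members under 1 CPM rest on few counts.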
